A study of Mus musculus with 8 samples.

Results

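The DEAD-box and DEAH-box helicases are RNA-dependent ATPases named for a short motif of their ATP-binding core. In whole hearts of wild-type mice, 49 genes that carry their names were measured. The grouping goes by symbol only, and Ddx11, for one, is a DNA helicase. The members were all genes whose symbol is Ddx or Dhx followed by a number and at most 1 letter, leaving out the sex-linked pair Ddx3x and Ddx3y. The name pattern found 51 of the 17911 genes in the table, and removing that pair left 33 Ddx and 16 Dhx genes. All are protein-coding and lie on 15 chromosomes, 0 of them on a sex chromosome. The hearts came from C57Bl6/J wild-type mice, 4 female and 4 male, with no treatment named; the labels call the animals adult and give an age of 4 weeks in one place and of 4 to 6 weeks in another. Each library is 1 heart, and all carry batch label 1. The extraction kit is described as one for small RNA, whereas the molecule is given as total RNA.

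DEAD-box proteins clamp onto RNA, bind ATP and pry short duplexes apart locally, and release the RNA after ATP is hydrolysed. DEAH-box proteins instead pull on a single strand from outside the complex they remodel, and several are switched on by partners that carry a glycine-rich G-patch. Members of both families act at nearly every step of an RNA's life, from splicing, export, ribosome assembly and translation to decay, and a few recognise viral RNA.

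The female libraries held 51699331 to 66254288 reads assigned to genes and the male libraries 54997897 to 75742388, below the depth that the labels state. The deposited values were counts divided by 1 size factor per heart, called normalized reads here. All hearts were rich in cardiomyocyte transcripts, whose 7 markers summed to between 4024970 and 4595500 normalized reads. The macrophage markers summed to 12308 to 14433 in female and 15365 to 18964 in male hearts, and 3 of 7 (C1qa, Csf1r and C1qb) fell in females; the dividing-cell markers summed to 510.0 to 871 in female and 799 to 1126 in male hearts, and 1 of 5 (Hmmr) fell. No macrophage or dividing-cell marker was at 0 in any heart. Among the other marker lists, Ryr2 of cardiomyocytes and Lum of fibroblasts rose in females, and no endothelial, smooth muscle, T-cell, red-cell, fat-cell, Schwann-cell or epicardial marker passed the test. In whole tissue, fewer cells of a type and less RNA per cell cannot be told apart. Ddx3y, on the Y chromosome, stood at 5715 to 6111 normalized reads in the male hearts and at 4.85, 9.70, 20.2 and 82.8 in the female hearts 1 to 4, so the labels of sex held, with female heart 4 carrying the most.

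Several members are close paralogues, and their sequences bear on whether reads can be assigned to one or the other. The coding sequences of Ddx5 and Ddx17, which encode transcriptional coregulators, are 74.3% identical in the GENCODE annotation of GRCm38, and their longest identical run is 21 bases. The windows around that run, both in exon 2, are shown with capitals at the bases that differ; Ddx5 is at chr11:106786912-106786992 and Ddx17 at chr15:79543709-79543789, both on the minus strand.
Ddx5: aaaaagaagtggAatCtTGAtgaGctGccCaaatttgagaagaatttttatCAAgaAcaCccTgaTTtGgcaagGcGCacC
Ddx17: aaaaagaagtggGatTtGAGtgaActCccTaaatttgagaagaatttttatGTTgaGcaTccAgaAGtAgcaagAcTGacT
Ddx39 and Ddx39b, which load export factors onto mRNA, are 81.7% identical, with a longest identical run of 26 bases. Their windows, at chr8:83719817-83719902 in exon 3 and chr17:35244141-35244226 in exon 2, both on the plus strand, have 10 differing bases in capitals.
Ddx39: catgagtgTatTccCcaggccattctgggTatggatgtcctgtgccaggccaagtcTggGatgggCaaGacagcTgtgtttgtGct
Ddx39b: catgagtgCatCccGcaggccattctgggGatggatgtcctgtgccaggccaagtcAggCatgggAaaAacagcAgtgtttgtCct

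Ddx19a and Ddx19b, whose proteins release mRNA on the cytoplasmic face of the nuclear pore, are neighbours on chromosome 8 and stand apart from the other pairs. Their coding sequences are 94.3% identical, and 275 bases in a row are the same. Of the 50-base words in their annotated transcripts, 831 are shared, which is 33.3% of those of Ddx19a and 12.4% of those of Ddx19b; the other 3 pairs compared share 0. The spliced window of Ddx19a through exons 7 to 9, spanning chr8:110978589-110980556 on the minus strand, carries the identical run between the capitals, which mark the differences from Ddx19b in this window.
Ddx19a: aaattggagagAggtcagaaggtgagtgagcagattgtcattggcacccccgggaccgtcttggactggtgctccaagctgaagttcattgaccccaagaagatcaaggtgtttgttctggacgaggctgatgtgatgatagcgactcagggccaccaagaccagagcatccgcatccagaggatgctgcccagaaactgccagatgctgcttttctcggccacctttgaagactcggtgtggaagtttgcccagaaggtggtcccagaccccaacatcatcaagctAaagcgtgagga
Counted from 1 at the 5′ end of the window and with the Ddx19a base first, the differences are A12G and A288G. No source used here gives the read length or the treatment of reads that match both genes, so the split between Ddx19a and Ddx19b is uncertain, whereas their sum does not depend on it if each such read was counted once. Strand is a further limit, because the strand setting is not given. Of the exon bases of Ddx39, 17.4% lie opposite Adgre5, and 29.8% of those of Ddx49 lie opposite Homer3. In Ddx41, 17.4% lie opposite Gm46416, and in Ddx54, 14.2% opposite Gm43579, so these 4 genes carry that uncertainty. Smaller shares of other members also lie opposite another gene, such as 5.18% of Ddx59 and 4.89% of Dhx32.

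All 49 genes were detected in all hearts, and 48 averaged at least 100 normalized reads. Levels compared between genes are normalized reads per kilobase of exon, the mean over 8 hearts with its SD. Ddx5, a coactivator that also acts in splicing and microRNA processing, led with 7646 ± 205. Its paralogue Ddx17 followed at 1809 ± 81.5, and Ddx39b, the export and splicing helicase, at 1696 ± 78.5. The ranges of Ddx17 (1714 to 1958) and Ddx39b (1572 to 1813) overlapped, so their order is not separated by the spread between hearts. Ddx6, the decay and translational repression helicase of P-bodies, stood at 1272 ± 49.4 and Ddx1, a subunit of the tRNA ligase complex, at 1140 ± 32.5. These 5 genes made up 48.2% of the level summed over the members.

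**Figure D1:**
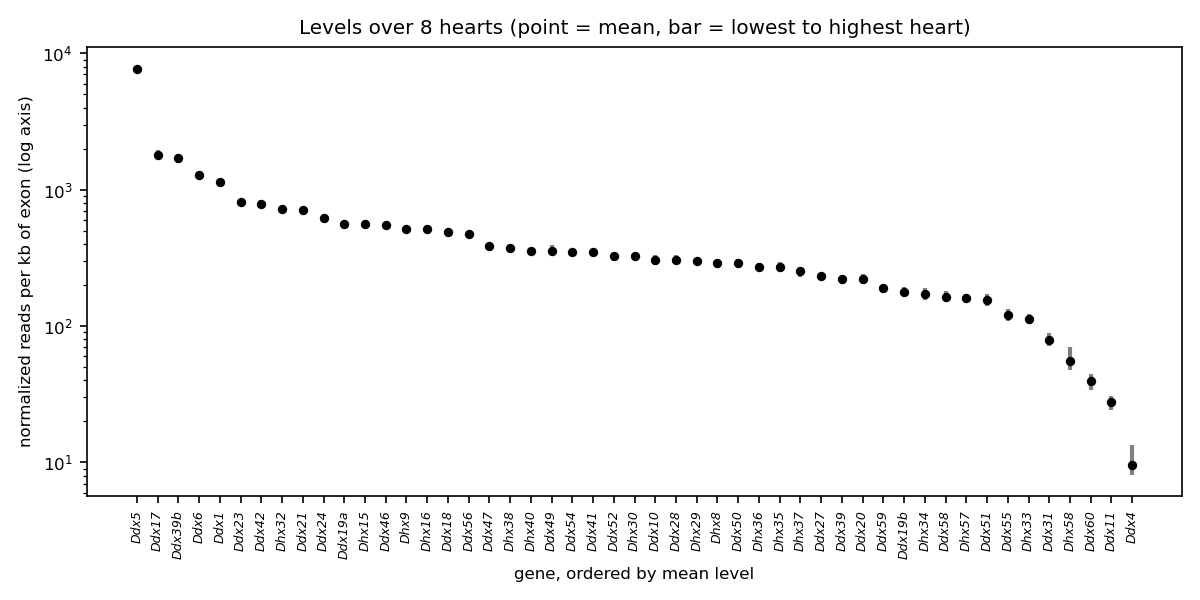
Normalized reads per kilobase of exon (log axis) for the 49 helicase genes in order of level; points are means over 8 hearts and bars run from the lowest to the highest heart. Levels fall from 7646 for Ddx5 to 9.54 for Ddx4, and the bars are widest among the lowest genes.

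At the other end were Ddx4, the germ cell helicase vasa, at 9.54 per kilobase, Ddx11, a DNA helicase of sister chromatid cohesion, at 28.0, and the innate sensors Ddx60 at 39.5 and Dhx58 at 55.5. The highest and lowest member differed 801-fold. Ddx4 held 24.2 to 40.4 normalized reads per heart. The median member stood at 324 per kilobase against 143 over all genes. For scale, the related translation factors Eif4a2 and Eif4a1, which carry the same motif but another name, stood at 4111 and 2195 per kilobase, and Ddx3x at 3134.

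Levels also varied within the role groups. The 5 genes of transcription and nuclear ribonucleoproteins ranged from 221 (Ddx20) to 7646 per kilobase, the 9 splicing genes from 270 (Dhx35) to 807 (Ddx23), and the 16 ribosome assembly genes from 79.6 (Ddx31) to 709 (Ddx21). Both mitochondrial members were close, Dhx30 at 324 and Ddx28 at 303. Members with a less well known role included Dhx32 at 725, the eighth of the 49. Added together, the members took 0.242% to 0.256% of all reads in every heart, and their sum was 159936 ± 1804 normalized reads over the 4 female hearts and 159677 ± 948 over the 4 male hearts (SD).

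Whether any of these genes differed between the sexes was tested with limma on log2(normalized reads + 1) across all 17911 genes, calling an adjusted p under 0.05; fold changes are female against male on that scale. None of the 49 passed, while 208 of all genes did (1.16%). That background changed when a single heart was left out, which also lessens the power of the test. It was 77, 110 and 129 genes without female hearts 2, 3 and 4. Without male hearts 1, 3 and 4 it was 137, 94 and 85, and without male heart 5 it was 516. At an unadjusted p under 0.05, limma marked 5 members (10.2%) where it marked 16% of all genes: Ddx39b, Dhx35 and Ddx23 with higher and Ddx20 and Ddx17 with lower female means. edgeR with either scaling and limma-voom also called 0 members, and DESeq2 called 1, Ddx39b. Leaving out female heart 4, or any other single heart, also left 0 members called by limma. The members' median difference was 0.01 on the log2 scale, against 0.00229 over all genes, with 27 members above 0 and 22 below. Of all genes, 50.9% were above 0.

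The differences were small and their intervals narrow. The estimates ran from -0.28 (Ddx4) to 0.13 (Ddx31), and none reached the log2 fold change of 0.6 that the labels name as a threshold. The 95% interval excluded a level over 10% higher in either sex for 24 members and over 20% higher for 46, where 20.2% and 49.2% of all genes reached those bounds. The exceptions at 20% were Ddx31, a ribosome assembly gene whose interval ran from -3.11% to 23.0%, Dhx58, from -21.9% to 12.9%, and Ddx4, from -39.2% to 10.9%. The median member had 1395 normalized reads and the median gene 594; intervals narrow with the count. For comparison, the gene left out by the rule, Ddx3x, stood at 19651 ± 323 in females and 13424 ± 264 in males (log2 fold change 0.55, limma adjusted p = 9.88e-07).

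**Figure D2:**
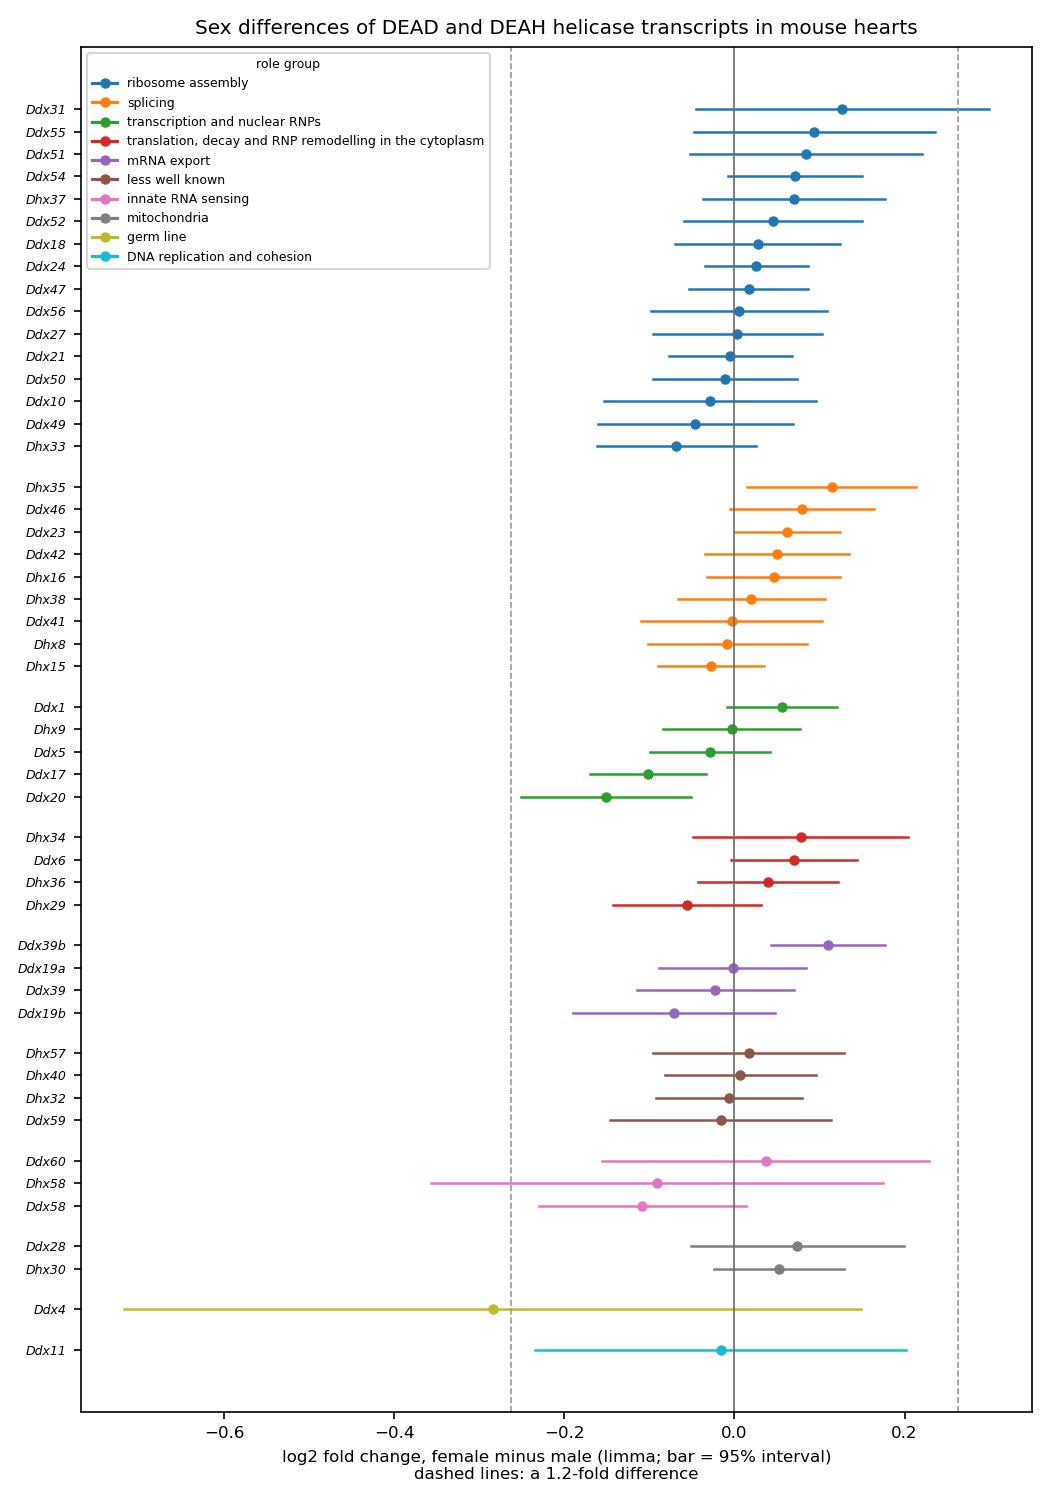
Log2 fold change of female against male hearts (x axis) for each of the 49 genes, grouped and coloured by role, with the 95% interval from limma as a bar. Dashed lines mark a 1.2-fold difference; 46 bars stay between them, and those of Ddx31, Dhx58 and Ddx4 do not.

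Among the export helicases, Ddx39b (chr17:35241746-35253707, plus strand), which unwinds RNA in the spliceosome and recruits export adaptors, had the smallest p of the members. It was read at 6569, 6650.0, 6858 and 6566 normalized reads in the female hearts and at 6198, 6199, 5947 and 6338 in the male hearts. The lowest female heart lay above the highest male heart. Its log2 fold change was 0.11 with an SE of 0.03 and a 95% interval of 3.06% to 13.1% higher, and its limma adjusted p was 0.111. In the authors' deposited table its adjusted p is 0.0342, the only one under 0.05 among the 48 members given one there (2.08%), where 4.9% of all genes with one are under it. DESeq2 gave 0.0343 and, like that table, called 690 genes, so these values are not independent of each other; over all alternatives the adjusted p of Ddx39b ran from 0.0343 to 0.505. The other 3 export genes overlapped between the sexes, with log2 fold changes of -0.02 for Ddx39, -0.07 for Ddx19b and -0.00178 for Ddx19a.

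Across the members, 6 of 49 (12.2%) had groups that did not overlap, near the 9.35% of all genes, so that count is no result about the family. They were Ddx39b, Dhx35, Ddx23 and Ddx1 with the female hearts above and Ddx20 and Ddx17 with the female hearts below.

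**Figure D3:**
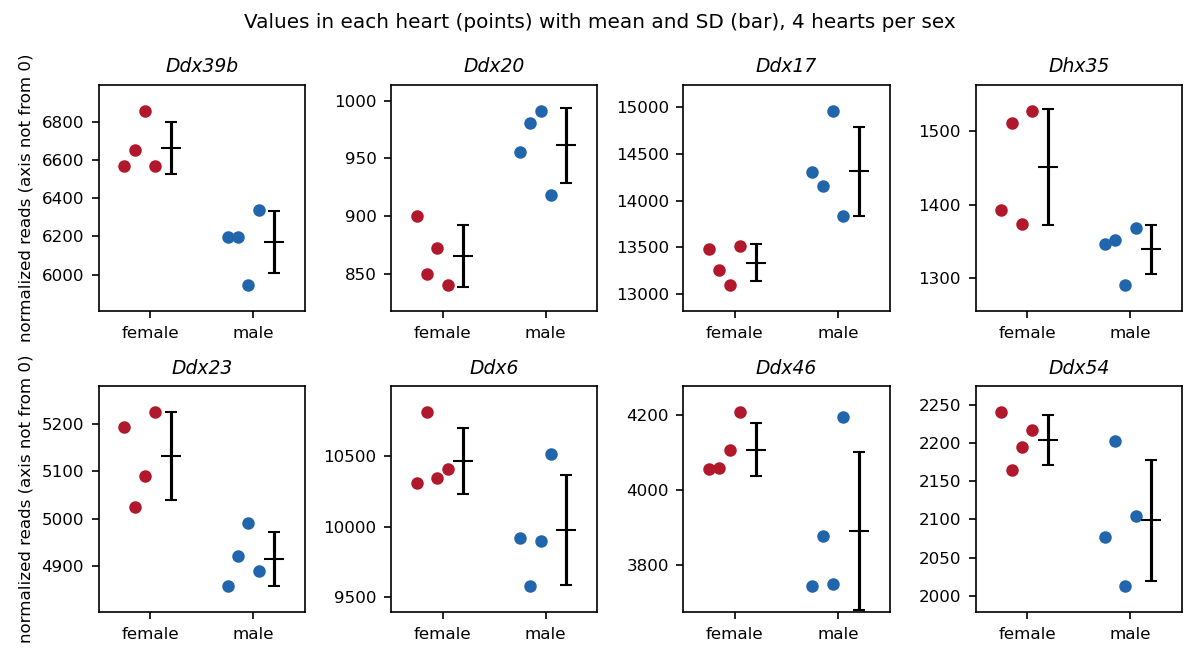
Normalized reads in each heart (points, y axis not from 0) for the 8 members with the smallest p, with the mean and SD of 4 hearts per sex as bars. In the panels of Ddx39b, Ddx20, Ddx17, Dhx35 and Ddx23 the female and male points do not overlap; in those of Ddx6, Ddx46 and Ddx54 they do.

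The 9 splicing helicases drive the spliceosome through its rearrangements, and none passed the test. Dhx35, found in the catalytic spliceosome, was read at 1393, 1511, 1373 and 1527 in female hearts against 1346, 1352, 1291 and 1368 in male hearts. The gap between the groups was narrow, 1373 against 1368, and the log2 fold change was 0.11 (limma adjusted p = 0.25). Ddx23, which admits the tri-snRNP to the spliceosome, held 5193, 5024, 5089 and 5224 in females and 4858, 4921, 4991 and 4890 in males. Its groups also did not overlap, with a log2 fold change of 0.06 (adjusted p = 0.304). Ddx46, which acts when the branch site is recognised, overlapped because male heart 5 held 4195 while the other male hearts held 3744 to 3878 and the females 4057 to 4208.

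The remaining splicing genes spanned -0.03 to 0.05. Dhx15, which takes spent spliceosomes apart, stood at 4681 normalized reads on average in females and 4771 in males (log2 fold change -0.03). Dhx38, Dhx8, Dhx16, Ddx41 and Ddx42 had log2 fold changes from -0.01 to 0.05. Summed over the 9 genes, female hearts held 24707 to 25638 and male hearts 24314 to 24695 normalized reads. The sums did not overlap but met within a narrow margin. The sums of the 4 export genes did not overlap either, at 10499.5 to 10894 in females and 10012.5 to 10444 in males. Of these genes only Ddx39b had a higher female mean, 6661 against 6170.5, so that gap rests on Ddx39b. The sums of the 21 helicases with other names described next did not overlap, at 76464 to 78890 and 75661 to 76106. Those of the other role groups overlapped between the sexes. No test was run on these sums. Of 24 partner proteins of the spliceosome, 0 passed the test in either direction. Of these, 18 were above 0, where 50.9% of all genes were, and the median was 0.03. Prpf8, the core protein of the catalytic centre, had a log2 fold change of 0.10 (adjusted p = 0.116), and Snrnp200, the helicase that unwinds the tri-snRNP and belongs to another family, had 0.12 (adjusted p = 0.0719). Among 21 measured RNA helicases with other names, some of them with the same core motif, 0 passed. Of 22 G-patch proteins, a class that includes activators of DEAH-box helicases, 0 passed, with a median of 0.01.

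Of the 5 genes for transcription and nuclear ribonucleoproteins, 4 had lower female means, among them Ddx5 and Dhx9, whose 95% intervals span 0. Ddx20 (chr3:105678270-105687574, minus strand), also called gemin-3, belongs to the SMN complex that assembles snRNPs. Female hearts held 900.1, 849, 872 and 840.4 and male hearts 955, 980.1, 991 and 918 normalized reads. Every female heart was below every male heart, and the log2 fold change was -0.15 (SE 0.05, 95% interval -16.0% to -3.47%, limma adjusted p = 0.140). Ddx17 was read at 13479, 13251, 13097 and 13518 in females and at 14305, 14157, 14965 and 13834 in males. Here too the groups were separate, with a log2 fold change of -0.10 (adjusted p = 0.144). The macrophage and dividing-cell markers given above were also lower in the female hearts; their part in these values was not tested.

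Its paralogue Ddx5 held 43518, 42169, 45288 and 43897 in females and 45525, 44300.5, 43213 and 45318 in males. These groups overlapped throughout, at a log2 fold change of -0.03 (adjusted p = 0.724, 95% interval -6.61% to 2.91%). Dhx9, a nuclear helicase that resolves RNA duplexes and R-loops, differed by -0.00341 on the log2 scale, with an interval of -5.69% to 5.53%. Ddx1 went the other way, with 5762 to 6133 in females and 5624 to 5719 in males (log2 fold change 0.06, adjusted p = 0.389). Of 12 measured partners in the tRNA ligase and SMN complexes, 0 passed, with a median of 0.01.

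The ribosome assembly group, the largest with 16 genes, works in the nucleolus on the precursors of both subunits. None passed, 11 were above and 5 below 0, and the median was 0.02. Ddx54 had the smallest p, with 2164 to 2241 normalized reads in females and 2012 to 2203 in males (log2 fold change 0.07, adjusted p = 0.366). Ddx24, the group's highest by reads, was among the steadiest, with 5067 to 5230.3 in females and 4989 to 5141 in males (0.03, adjusted p = 0.710). Ddx21 and Ddx50, a nucleolar pair side by side on chromosome 10, differed by -0.00474 and -0.01. The lower genes had wider intervals: Ddx51 had 0.08 (adjusted p = 0.560) and Ddx55 0.09 (adjusted p = 0.528). Of the others, Ddx31, Ddx52, Dhx37, Ddx18, Ddx47, Ddx56 and Ddx27 had estimates from 0.00348 to 0.13 and Ddx10, Ddx49 and Dhx33 from -0.07 to -0.03. The group's sum was 27357 ± 363 in females and 27030 ± 336 in males. Of 29 other ribosome assembly genes, 1 rose and 28 did not pass; it was Polr1a, the largest subunit of RNA polymerase I, with 4922 ± 182 in females and 4362 ± 127 in males (0.17, adjusted p = 0.0374).

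In the cytoplasm, Ddx6 held 10307, 10812, 10343 and 10407 in females and 9921, 9576, 9894 and 10514 in males. Male heart 5 lay inside the female range, and the log2 fold change was 0.07 (adjusted p = 0.341). Dhx36, which unwinds G-quadruplexes, had 0.04, Dhx34, a factor of nonsense-mediated decay, 0.08, and Dhx29, which helps ribosomes scan structured leaders, -0.06. Of 11 P-body and decay partners, 0 passed. In mitochondria, Dhx30 and Ddx28 serve ribosome assembly, and their log2 fold changes were 0.05 (adjusted p = 0.513) and 0.07 (adjusted p = 0.581). Of 14 measured export partners, 0 passed, among them the export receptor Nxf1 at -0.08 (adjusted p = 0.184) and Gle1, the activator of the pore helicases, at 0.08 (adjusted p = 0.296).

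The last 6 members have other or less well known roles. Dhx32 held 2868 to 3107 normalized reads in females and 2862 to 3178 in males, Dhx40 1506 to 1540 and 1434.5 to 1569.5, Dhx57 940 to 997 and 892 to 1030, and Ddx59, linked in humans to ciliary disease, 514 to 580.3 and 543 to 591. All 4 overlapped, with estimates from -0.02 to 0.02 on the log2 scale. Ddx11 held 178 to 199 in females and 160 to 204 in males (-0.02, adjusted p = 0.957). Ddx4 held 24.2 to 27.2 in females and 24.7 to 40.4 in males (-0.28, adjusted p = 0.535), and a count this low leaves its difference the least precise of the 49.

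The balance within the paralogue pairs was compared as a ratio in each heart, with an exact two-sided permutation test over the 8 hearts, adjusted over 4 pairs; the smallest p this design can give is 0.0286. The ratio of Ddx39 to Ddx39b was 0.173, 0.167, 0.163 and 0.183 in females and 0.187, 0.192, 0.194 and 0.178 in males. All but female heart 4 and male heart 5 fell on separate sides, and the ratio was different by -8.81% in females (log2 difference -0.13, exact p = 0.0571, adjusted 0.229). The part of Ddx39 that lies opposite Adgre5 limits this ratio; Adgre5 itself stood at 3271 ± 41.7 in females and 3305 ± 79.0 in males.

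Ddx5 was counted 3.28 ± 0.122 times as often as Ddx17 in females and 3.12 ± 0.166 times in males (log2 difference 0.07, exact p = 0.2, adjusted 0.4). Ddx19a to Ddx19b gave 1.42 ± 0.0943 and 1.35 ± 0.0780 (exact p = 0.314, adjusted 0.419), and the sum of both genes was 2825 ± 86.8 in females and 2886 ± 99.4 in males (exact p = 0.343). Ddx21 to Ddx50 gave 1.26 ± 0.0291 and 1.26 ± 0.0593 (exact p = 0.914, adjusted 0.914). No ratio passed the test, which a single pair could not have passed on its own. SDs are over 4 hearts per sex.

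**Figure D4:**
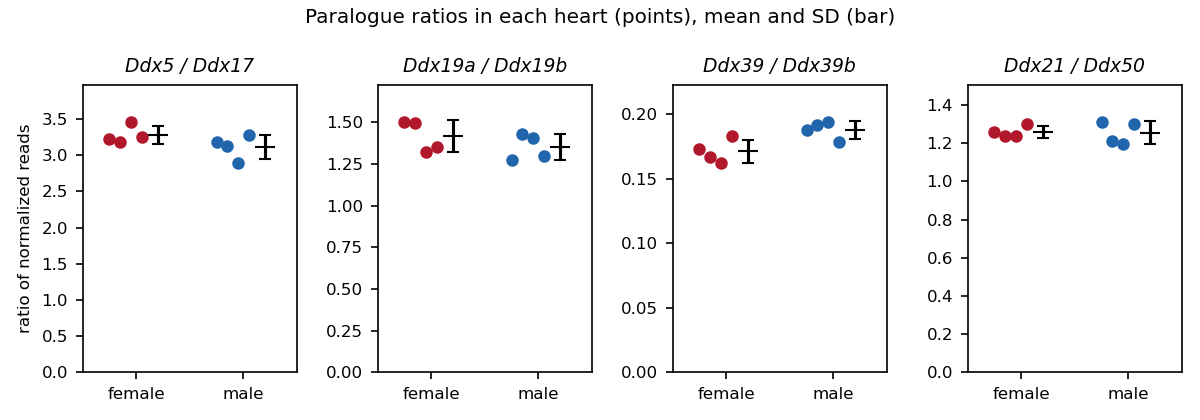
Ratio of normalized reads between paralogues in each heart (points), with the mean and SD of 4 hearts per sex as bars and axes from 0. The female and male points overlap in all 4 panels; they come closest to separating for Ddx39 to Ddx39b, at 0.171 against 0.188 on average.

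The innate sensors recognise foreign RNA and are themselves induced by interferon. Ddx58 encodes RIG-I, the receptor for uncapped triphosphate RNA ends, Dhx58 its regulator, and Ddx60 an antiviral cofactor. Promoter windows from 250 bases before to 50 after the start, from RefSeq on GRCm38.p6, were found for 43 of the 49 members. They were searched on both strands for the core of the interferon-stimulated response element, GAAA, any 2 bases and GAAA again, which 3 members hold (6.98%: Ddx58, Ddx60 and Ddx49) against 3.99% of 27025 genes with a window. The stretch of 100 bases before the Ddx60 start, at chr8:61927987-61928086 on the plus strand, is printed because it holds the core in capitals in 2 places, from -53 to -44 and from -19 to -10.
Ddx60: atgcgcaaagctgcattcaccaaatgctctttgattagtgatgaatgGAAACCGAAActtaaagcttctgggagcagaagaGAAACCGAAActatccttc
In Ddx58 the match lies just past the start. The E-box CACGTG was present in 6 members (14.0%: Dhx35, Dhx33, Dhx40, Ddx42, Ddx5 and Ddx4) and in 8.09% of all genes. A match is a description of these letters only. A member not named may lack a match or may be among the 6 without a window, so no absence is stated for Dhx58.

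Ddx58 was read at 1127, 1099.6, 1049.8 and 1149.8 in female hearts 1 to 4 and at 1168, 1275, 1252 and 1084 in male hearts 1, 3, 4 and 5. The groups overlapped through male heart 5, and the log2 fold change was -0.11 (adjusted p = 0.370). Dhx58 held 183, 166, 155 and 197 in females and 172, 163, 228 and 187 in males, overlapping widely, at -0.09 (adjusted p = 0.775). Ddx60 held 336, 388, 318 and 348 in females and 353, 297, 337 and 369 in males, at 0.04 (adjusted p = 0.887). Of 22 genes of the RIG-I pathway and interferon response, 0 passed and the median was -0.03; Eif2ak2, the RNA-activated kinase, had -0.14 (adjusted p = 0.264). Their sum was lowest in female heart 3 (23342) and male heart 5 (23226), the same hearts in which Ddx58 was lowest within its sex, against 24691 to 26236 in the other hearts. Dhx58 and Ddx60 were also lowest in female heart 3 among females, but among males both were lowest in male heart 3, and Ddx60 was highest in male heart 5.

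Within a sex, the hearts differed little. The SD between hearts of one sex on the log2 scale had a median of 0.05 over the members and 0.11 over all genes. Because the spread falls with the number of reads, it was divided by the SD that counting alone would give: the median ratio was 1.51 for members and 1.58 for all genes. The ratio was highest for Ddx5, at 5.61, where counting error is least, and lowest for Ddx4, at 0.756, where the spread was below that of counting alone. Dhx58, Ddx60 and Ddx11 had the widest spread among members of at least 100 reads, and Ddx24 was close to counting error with a ratio of 0.984.

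**Figure D5:**
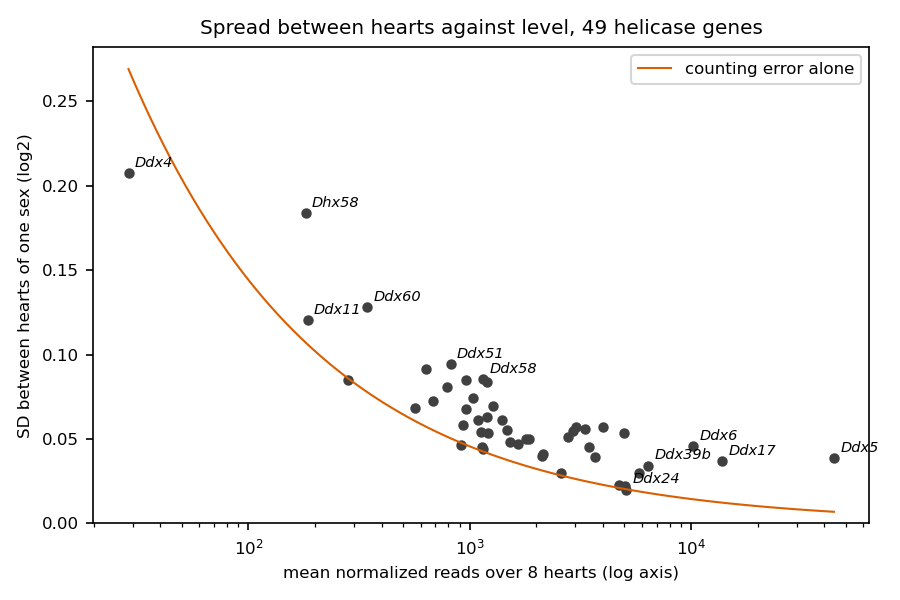
SD between hearts of one sex on the log2 scale against mean normalized reads (log axis) for the 49 genes; the line is the SD that counting error alone would give. Most points lie close to or above the line, Dhx58 and Ddx60 stand high among the low genes, and Ddx5 lies 5.61 times above it.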

How the data were processed

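RNA-seq of 8 mouse hearts was used, 4 per sex. Per the values, each of the deposited signal columns (1 per heart) holds counts scaled by a single size factor, applied by the authors; whole reads were recovered for 100% of values within 0.001 reads. The authors' deposited log2 fold changes and p-values come from their own test, which no source used here names, though for the named members the values nearly equal those of DESeq2 on the recovered reads; no aligner, counter or strand setting is given in the sources used here. The build was mm10, per the submitters' processing notes. Here limma 3.58.1 (R 4.3.3, trend and robust) tested log2(value + 1) for genes of at least 1 in at least 4 hearts, which kept all 17911, with Benjamini-Hochberg adjustment. edgeR 4.0.16, DESeq2 1.42.0 and limma-voom ran on the recovered reads as alternatives. Exon lengths came from GENCODE on GRCm38, and all members have one. Paralogue identity is over aligned coding bases of the longest coding transcript of each gene.

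Members and lists were chosen with earlier results of these data known. The members named with values are the 8 with the smallest p, the 5 highest per kilobase, the 5 of at least 100 reads with the widest spread, the paralogue pairs, the innate sensors and the highest of each role group; values of further members complete the groups. Totals of reads without molecular identifiers speak to counting error only. No 2 hearts of a sex agreed within sampling noise (chi-square per degree of freedom 8.37 to 18.9 over 12 pairs). The fits were checked on simulated counts with 200 changed genes drawn from all genes. There limma recovered 7.32% of 1.1-fold and 42.6% of 1.25-fold changes, so differences this small were mostly missed. Of the calls, 3.88% were false with limma and 16.8% with DESeq2.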

Additional observations from a re-analysis of the deposited data

Results flagged for a closer look

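In 4 of 106 groups of 4 hearts, 1 heart stood far from the other 3, its gap to the nearest being larger than Dixon's 95% critical value for 4 samples allows; chance alone gives about 1 in 20 such groups. Dhx16, which prepares the spliceosome for its first step, was lowest in female heart 4, at 2074 normalized reads against 2170.1 to 2182.4 in the others (gap 0.887 of the range). Dhx40 was highest in female heart 3, at 1540 against 1506 to 1509 (0.901). Ddx11, the cohesion helicase, was highest in female heart 4, at 199 against 178 to 180.4 (0.877). Dhx9, the nuclear helicase of RNA duplexes, was highest in male heart 5, at 5240 against 4872 to 4933 (0.834). Female heart 4 and male heart 5 had the lowest read totals, 51699331 and 54997897; the part of depth in these values was not tested.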

How the results depend on the processing

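Of 21 alternatives, 20 left 0 members called, and DESeq2 called 1, Ddx39b. DESeq2 calls 690 genes in all where limma calls 208, and the cause was not tested. The alternative without the filter is the main fit again, because the filter removed no gene. Fits on fewer hearts also have less power to call a gene. Over all alternatives the count of genes called was 28 (replicate block by library code) to 690, and 77 to 516 with 1 heart left out. The members' median difference stayed between 0.00489 and 0.0250 on the log2 scale; the value 0.0250, from the replicate block by library code, was the only one to move beyond the spread between hearts. The median of all genes moved by at most 0.00163, but scaling each heart holds it near 0, so this is no check. Estimates near 0 changed sign, none of them called: Ddx19a with DESeq2 (0.000243), limma-voom (0.00129), read totals as covariate (0.0119) and only the 5 most deeply sequenced hearts, an alternative chosen after seeing the data (0.0397); Dhx40 in those hearts (-0.0143); and, with the covariate, Ddx60 (-0.00128), Ddx50 (0.0222) and Dhx32 (0.0371).

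The replicate block used the 6 hearts whose number both sexes share: it called 0 members, with a median of 0.0195, and turned Dhx40 (-0.00319) and Ddx19a (0.00264). By library code the block gave Dhx58 0.0318, Ddx60 -0.0190, Ddx50 0.0173, Dhx40 -0.0145, Ddx11 0.0204, Dhx32 0.0146, Ddx21 0.00766 and Ddx19a 0.00773. The numbers name no shared litter or day, and hearts with the same title number deviated from their group means with correlations of 0.166, -0.0463 and -0.108; by library code these were 0.166, -0.0463 and 0.124. In neither case was every pair above 0.1. The male most like each female carried the same library code for codes 1 and 5 but not for code 3. By title number this held for number 1 only. With 3 pairs, these values cannot decide whether such hearts share more than a number. Leaving out each heart in turn gave Ddx19a -0.0211 to 0.0235, Ddx21 -0.0176 to 0.0147, Ddx50 -0.0356 to 0.0191, Ddx60 -0.0254 to 0.0792, Dhx32 -0.0336 to 0.0182, Dhx40 -0.0177 to 0.0256, Dhx58 -0.153 to 0.00672, Ddx11 -0.0875 to 0.0281 and the Ddx21 to Ddx50 ratio -0.0174 to 0.0273. It also moved, by over 1.5 times without a change of sign, Ddx4 (-0.396 to -0.166), Dhx36 (0.0137 to 0.0557), Ddx5 (-0.0457 to -0.0114), Ddx39 (-0.0485 to -0.00903), Ddx51 (0.0436 to 0.117), Ddx55 (0.0558 to 0.136), Ddx19b (-0.111 to -0.0453), Ddx28 (0.0423 to 0.117), Dhx15 (-0.0387 to -0.0151), Dhx30 (0.0318 to 0.0719) and the ratios of Ddx5 to Ddx17 (0.0366 to 0.0973) and of Ddx19a to Ddx19b (0.0402 to 0.102). Depth limits Ddx4, whose mean was 28.8 normalized reads. The strand setting limits Ddx39, Ddx41, Ddx49 and Ddx54, and over a smaller share of exon bases some other members.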
